A study of Mus musculus with 4 samples.

Results

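The enzymes of glycolysis, the carriers that bring glucose in and lactate out, the kinases that hold pyruvate back from the mitochondrion, and the hypoxia factor gene Hif1a were examined in hematopoietic stem and progenitor cells (HSPC) with constant NIK activity. Members were the 32 listed gene symbols plus Pkm, the form of the pyruvate kinase symbol that the tables use, which gave 33 genes of the 24015 counted. The series holds 4 mouse RNA-seq libraries of sorted HSPC, 2 labelled control and 2 labelled caNIK. In caNIK mice a NIK mutant that TRAF3 cannot target sat behind a loxP-flanked stop at the Rosa locus, and the Vav-iCre line, which expresses Cre recombinase across blood cells, removed that stop. The labels call the other mice control and do not say whether they carried either allele. The sources used here do not give the sort markers, the tissue, the age or the number of animals per library.

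Glycolysis splits glucose into pyruvate in the cytosol and yields ATP without oxygen. Pyruvate is then reduced to lactate and exported, or enters mitochondria through the pyruvate dehydrogenase complex, which pyruvate dehydrogenase kinases switch off. Stem cells of the bone marrow are known for leaning on glycolysis, and HIF-1, whose oxygen-regulated subunit Hif1a encodes, raises transcription of many of these enzymes by binding the core sequences ACGTG and GCGTG. Most steps are served by several isoforms from separate genes, which differ in the tissues and conditions that use them.

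Library totals lay between 18574452 and 23162766 counts, and the 33 genes took 0.651% to 0.679% of each. Map3k14, which encodes NIK, had levels of 30.2 and 25.1 CPM (reads of a gene relative to the TMM-adjusted total of its library) in control replicates 1 and 2 and 178 and 192 CPM in caNIK replicates 1 and 2, higher in caNIK as the labels have it; reads of the inserted and the native gene are not told apart. All 12 stem and progenitor markers examined had reads in these libraries. Kit was at 506 to 613 CPM throughout, whereas Cd34, Flt3, Cd27 and Cd93 fell in caNIK and Ly6a and Gata2 rose. Summed erythroid marker levels (15 genes, 9 higher in caNIK) were 761 and 1480 CPM in control and 3980 and 6260 CPM in caNIK. The adult globin genes Hba-a1 and Hbb-b1 were at 0 in all 4 libraries. Whether these 0 counts come from absent transcripts or from the counting of reads with several matches was not tested. Summed mast cell and basophil markers (10 genes, 9 higher) were 83.7 and 119 CPM in control and 2800 and 1380 CPM in caNIK. Summed granulocyte markers (11 genes, 5 higher and 4 lower) were 1360 and 3230 CPM in control and 379 and 473 CPM in caNIK. Mpo alone made up 1038 and 2503 CPM of the control sums, whereas S100a8, S100a9, Ltf, Camp and Ngp rose. The part of these cell type differences in the results that follow was not tested. In such bulk samples, fewer cells of a type and less RNA per cell cannot be told apart. No label ties the 4 libraries to separate animals; the p-values therefore rest on library-to-library spread, part or all of which may be technical.

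The upstream sequences of 5 genes are shown. Eno2 is shown for its change, the largest among the 33 genes, and the others because they are textbook HIF-1 targets past the threshold in opposite directions, Slc2a1 and Ldha higher and Hk2 and Pdk1 lower. Each is the stretch of 250 bases that ends just before the most upstream start listed in RefSeq for the gene (GRCm38.p6, a later build than the mm9 named for the counts), 5′ to 3′ on the gene's strand. Capitals mark ACGTG or GCGTG on either strand. Eno2 lies at chr6:124769674-124769923 on the minus strand, Slc2a1 at chr4:119108495-119108744 on the plus strand, Ldha at chr7:46845554-46845803 on the plus strand, Hk2 at chr6:82774455-82774704 on the minus strand and Pdk1 at chr2:71872974-71873223 on the plus strand.
Eno2: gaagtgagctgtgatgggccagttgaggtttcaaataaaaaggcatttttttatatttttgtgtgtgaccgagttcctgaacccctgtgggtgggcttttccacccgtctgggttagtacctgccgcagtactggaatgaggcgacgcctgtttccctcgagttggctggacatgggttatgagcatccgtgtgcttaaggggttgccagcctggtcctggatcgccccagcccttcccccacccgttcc
Slc2a1: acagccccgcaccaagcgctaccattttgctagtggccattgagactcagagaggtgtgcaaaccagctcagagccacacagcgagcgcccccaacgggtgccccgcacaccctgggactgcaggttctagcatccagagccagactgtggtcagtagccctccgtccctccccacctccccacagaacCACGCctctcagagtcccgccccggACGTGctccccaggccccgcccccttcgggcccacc
Ldha: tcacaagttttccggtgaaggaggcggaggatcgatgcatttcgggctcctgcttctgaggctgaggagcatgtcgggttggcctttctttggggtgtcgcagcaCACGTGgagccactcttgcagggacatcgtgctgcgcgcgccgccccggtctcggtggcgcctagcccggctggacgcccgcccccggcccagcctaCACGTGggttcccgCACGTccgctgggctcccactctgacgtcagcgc
Hk2: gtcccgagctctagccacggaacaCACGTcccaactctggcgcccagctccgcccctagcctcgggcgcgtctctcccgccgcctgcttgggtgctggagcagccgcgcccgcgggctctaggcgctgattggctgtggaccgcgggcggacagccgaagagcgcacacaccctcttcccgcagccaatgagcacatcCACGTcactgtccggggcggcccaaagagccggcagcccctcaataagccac
Pdk1: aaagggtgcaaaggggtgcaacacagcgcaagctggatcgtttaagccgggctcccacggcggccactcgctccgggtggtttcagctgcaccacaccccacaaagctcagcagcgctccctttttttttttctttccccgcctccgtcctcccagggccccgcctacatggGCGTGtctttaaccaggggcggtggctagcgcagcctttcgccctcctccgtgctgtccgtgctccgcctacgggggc
The first of these, Eno2, has 0 core matches in its window. Slc2a1 has 2, Hk2 has 2 and Pdk1 has 1. Ldha has 5 matches, of which 4 come from CACGTG read on both strands. A window was found for 32 of the 33 genes, all but Slc2a3. At least 1 core was present in 25 of the 32 (78.1%), against 55.3% of the 10637 tested genes with a window and 38.6% of all 27025 genes in the table. The core was present for 3 of 4 genes that rose, 4 of 4 that fell and 18 of 24 that did not pass. A loose form of the NF-kB motif, GGG and CC with any 5 bases between them on either strand, was present in 20 of 32 windows (62.5%), against 60.8% of tested genes with a window.

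Between caNIK and control HSPC, 8 of the 33 genes passed the threshold (edgeR's quasi-likelihood test, Benjamini-Hochberg adjusted p under 0.05 over 14191 tested genes), 4 higher and 4 lower. All 33 passed the filter on low counts. Eno2, Slc16a3, Slc2a1 and Ldha rose; Hk3, Hk2, Pdk1 and Pdha1 fell. Their share, 24.2%, is near the background, where 22.0% of all tested genes passed, 13.8% higher and 8.21% lower. The median log2 fold change of the 33 genes was -0.07, and that of all tested genes was 0.00. CPM of the groups did not overlap for 28 of the 33, with caNIK above in 12 and below in 16, against 64.9% of all tested genes. The 4 that rose and the 4 that fell came from different steps, and no step had isoforms past the threshold in both directions.

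**Figure D1:**
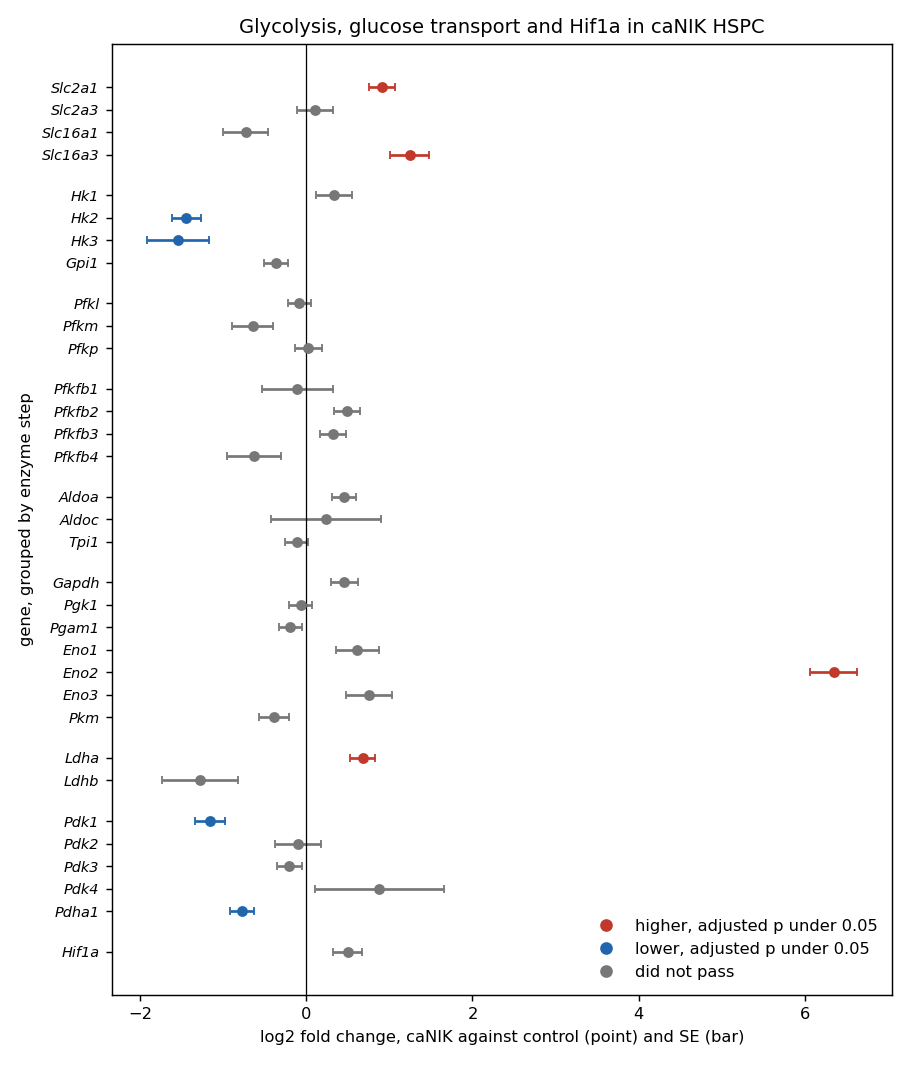
Log2 fold change of each of the 33 genes, caNIK against control (x axis, points, with SE as bars; 2 libraries a group), with genes on the y axis grouped by enzyme step. Red marks the 4 genes that rose, blue the 4 that fell and grey the 25 that did not pass; Eno2 stands far to the right at 6.34.

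At the entry of glucose, Slc2a1, which encodes the widely used transporter GLUT1, rose 1.89-fold. Its level was 40.3 and 36.6 CPM in control replicates 1 and 2 and 72.0 and 72.8 CPM in caNIK replicates 1 and 2. Both caNIK libraries were above both controls, and the replicates of a group lay close together. The log2 fold change was 0.92 ± 0.15 (SE; edgeR adjusted p = 0.0082). Slc2a3, which encodes the high-affinity transporter GLUT3, was at 67.8 and 81.4 CPM in control and 94.8 and 65.4 CPM in caNIK. Its groups overlapped, and the log2 difference of 0.10 had a 95% interval from -0.42 to 0.62 (adjusted p = 0.78). Within a library, the ratio of Slc2a3 to Slc2a1 reads was 1.78 times lower in caNIK.

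At the exit of lactate, the carrier gene Slc16a3 (MCT4, a low-affinity carrier typical of glycolytic cells) rose from 12.6 and 13.6 CPM in control to 35.3 and 26.7 CPM in caNIK. The log2 fold change was 1.24 ± 0.24 (edgeR adjusted p = 0.013), and the groups did not overlap. Slc16a1 (MCT1, which carries lactate and pyruvate in either direction) was at 135 and 168 CPM in control and 66.6 and 116 CPM in caNIK. Both caNIK libraries were lower, but they differed from each other and the gene did not pass (-0.73 ± 0.27; adjusted p = 0.11). It passed without control replicate 1 (-0.89; adjusted p = 0.033) and without caNIK replicate 2 (-1.20; adjusted p = 0.0099). The read ratio of Slc16a3 to Slc16a1 was 4.02 times higher in caNIK. Per kilobase of exon, Slc16a1 still had the higher level of the pair in caNIK, at 20.6 ± 7.89 CPM per kb against 5.82 ± 1.15 CPM per kb for Slc16a3 (SD, n = 2).

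**Figure D2:**
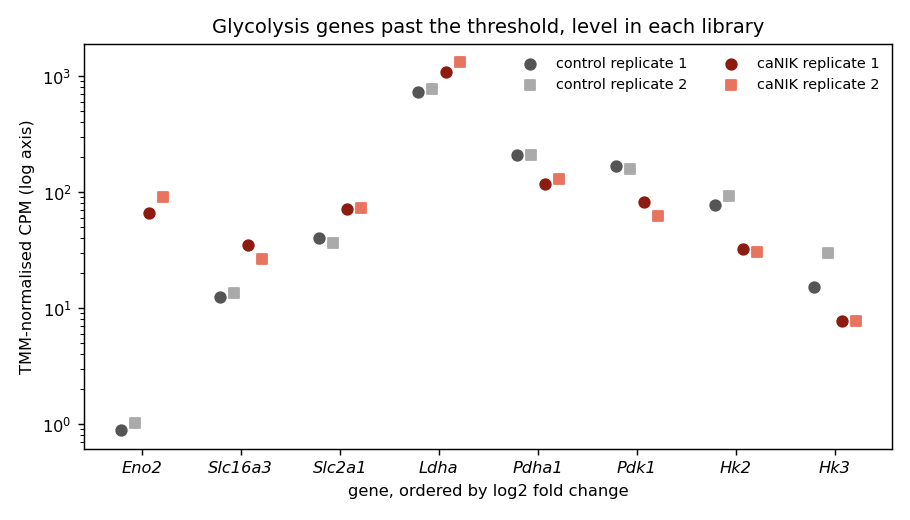
Level of the 8 genes past the threshold in each library, as TMM-normalised CPM on a log axis, with genes ordered on the x axis by log2 fold change. Grey symbols are control and red symbols caNIK, with circles for replicate 1 and squares for replicate 2; the groups are apart for all 8 genes, and the control replicates of Hk3 differ most, at 15.2 and 30.0 CPM.

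The first enzyme of the pathway, hexokinase, which traps glucose as glucose 6-phosphate, changed in its isoforms. Hk2, the inducible isoform that binds mitochondria, was at 77.5 and 93.0 CPM in control and 32.5 and 30.3 CPM in caNIK. Every caNIK value lay well below the controls, and the gene was 2.71-fold lower (log2 fold change -1.44 ± 0.17; edgeR adjusted p = 0.0021). Hk3, an isoform of myeloid cells, was at 15.2 and 30.0 CPM in control and 7.73 and 7.81 CPM in caNIK (-1.54 ± 0.37; adjusted p = 0.028). The higher control value was that of replicate 2. Its summed erythroid, granulocyte, monocyte, mast cell, megakaryocyte and stromal markers were higher than in control replicate 1. Its summed stem and progenitor, B cell, T and NK cell and dendritic cell markers were lower. The part of these marker differences in the Hk3 value was not tested. Hk3 did not pass without control replicate 2 (-0.96; adjusted p = 0.17), without caNIK replicate 1 (adjusted p = 0.071) or without caNIK replicate 2 (adjusted p = 0.074). Hk1, the constitutive isoform, was at 242 and 348 CPM in control and 333 and 410 CPM in caNIK, with overlapping groups (0.33 ± 0.21; adjusted p = 0.32).

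Hk1 was the main hexokinase transcript in both groups on a per-length scale, and its share was larger in caNIK. It made up 62.8% ± 0.60 of the summed hexokinase CPM per kb in control and 85.4% ± 2.3 in caNIK (SD, n = 2). The share of Hk2 was 26.4% ± 3.1 in control and 10.5% ± 1.8 in caNIK, and that of Hk3 was 10.8% ± 2.5 and 4.17% ± 0.48. The summed level overlapped, with 55.0 ± 13 CPM per kb in control and 50.9 ± 6.2 in caNIK. Gpi1, the isomerase of the next step, was at 650 and 751 CPM in control and 565 and 525 CPM in caNIK and did not pass (-0.36 ± 0.15; adjusted p = 0.13).

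Phosphofructokinase, the committing step, had no isoform past the threshold. Pfkl, the liver-type isoform, was nearly level at 197 and 198 CPM in control and 186 and 187 CPM in caNIK, with a 95% interval of the log2 difference from -0.41 to 0.24. Pfkp, the platelet-type isoform, overlapped between groups (0.03; interval -0.35 to 0.41). Pfkm, the muscle-type isoform, was at 73.9 and 110 CPM in control and 49.0 and 68.3 CPM in caNIK and did not pass (-0.64 ± 0.25; adjusted p = 0.12), though it did without control replicate 1 (-0.92; adjusted p = 0.020). The bifunctional Pfkfb enzymes make or remove fructose 2,6-bisphosphate, the activator of phosphofructokinase. Pfkfb2 was at 37.2 and 38.6 CPM in control and 54.0 and 52.6 CPM in caNIK, close to the threshold but not past it (0.49 ± 0.16; adjusted p = 0.067). Pfkfb3, the isoform that strongly favours synthesis, was at 58.9 to 60.4 CPM in control and 68.5 to 80.8 CPM in caNIK (adjusted p = 0.20). Pfkfb4 gave -0.63 ± 0.32 (adjusted p = 0.22) and Pfkfb1 -0.11 ± 0.42 (adjusted p = 0.89), the latter at 3.65 to 4.13 CPM.

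In the middle of the pathway, aldolase splits the hexose and triose phosphate isomerase interconverts the products. Aldoa, the main aldolase of most cells, was at 344 and 389 CPM in control and 516 and 489 CPM in caNIK. The groups did not overlap, but the gene did not pass (0.45 ± 0.14; adjusted p = 0.065); it passed in DESeq2's Wald test (adjusted p = 0.032). Aldoc, the brain-type isoform, lay under 6 CPM in every library and overlapped. Tpi1 was at 415 and 452 CPM in control and 390 and 412 CPM in caNIK (interval of the log2 difference -0.44 to 0.22).

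The later steps yield ATP and pyruvate, and among them the enolase gene Eno2 had the largest change of all 33 genes. Eno2, known as neuron-specific enolase, had 17 and 24 reads in the control libraries and 1233 and 1870 in the caNIK libraries. Its level was 0.882 and 1.02 CPM in control and 66.2 and 90.2 CPM in caNIK, 81.3-fold higher. The groups were far apart relative to the replicates, with a log2 fold change of 6.34 ± 0.28 (edgeR adjusted p = 8.2e-05). Eno3, the muscle enolase, was at 9.86 and 11.3 CPM in control and 20.2 and 15.6 CPM in caNIK and did not pass (0.76 ± 0.27; adjusted p = 0.097). Eno1, the enolase of most cells, was counted at 10.3 and 12.8 CPM in control and 18.5 and 16.9 CPM in caNIK (0.61 ± 0.26; adjusted p = 0.14).

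The Eno1 level is uncertain. At 2.15 ± 0.32 CPM per kb in control it lay far under its neighbours in the pathway, Pgam1 at 184 ± 0.33 and Pkm at 203 ± 9.3 CPM per kb (SD, n = 2). Eno1b, a near-identical copy, was at 0.322 to 0.682 CPM in all libraries. The sources used here do not state what was done with reads that match both copies. Enolase shares and the Eno2 to Eno1 read ratio, 52.9 times higher in caNIK, therefore rest on an Eno1 count that may be incomplete. Gapdh, Pgk1, Pgam1, Tpi1, Aldoa, Ldha and Pkm, which also have processed copies in the genome, carry the same uncertainty in their levels.

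The remaining payoff enzymes did not pass. Gapdh, the dehydrogenase that makes NADH, was at 653 and 723 CPM in control and 842 and 1052 CPM in caNIK (0.46 ± 0.16; adjusted p = 0.093); it passed without caNIK replicate 1 (0.62; adjusted p = 0.015). Pgk1, the first ATP-making step, was at 437 to 470 CPM in control and 432 to 433 CPM in caNIK, with an interval of the log2 difference from -0.39 to 0.25. Pgam1 gave -0.19 ± 0.14 (adjusted p = 0.39). Pkm, the pyruvate kinase of most cells, was at 1049 and 983 CPM in control and 897 and 658 CPM in caNIK (-0.39 ± 0.18; adjusted p = 0.18), and it passed without caNIK replicate 1 (-0.62; adjusted p = 0.013). The gene-level counts do not separate the PKM1 and PKM2 splice forms. Pklr, the pyruvate kinase gene of liver and red cells, was higher in replicate 2 of both groups (25.8 and 115 CPM in control, 54.6 and 162 CPM in caNIK), and its groups overlapped.

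Lactate dehydrogenase, which turns pyruvate into lactate and restores NAD+, had 1 of its subunit genes past the threshold. Ldha, the subunit that favours lactate, was at 724 and 773 CPM in control and 1083 and 1314 CPM in caNIK, a 1.60-fold rise (0.68 ± 0.15; edgeR adjusted p = 0.024). It did not pass without control replicate 1 (0.61; adjusted p = 0.22) or without control replicate 2 (0.73; adjusted p = 0.10). Ldhb, the subunit of oxidative tissue, was at 32.4 and 28.2 CPM in control and 18.5 and 6.51 CPM in caNIK. Both caNIK libraries were lower but differed from each other, and the gene did not pass (-1.28 ± 0.46; adjusted p = 0.096), whereas it passed in DESeq2 (adjusted p = 0.027) and limma-voom (adjusted p = 0.042), without control replicate 2 (-1.37; adjusted p = 0.017) and without caNIK replicate 1 (-2.21; adjusted p = 0.0036). The ratio of Ldhb to Ldha reads was 4.38 times lower in caNIK. Per length, Ldha made up 92.1% ± 1.0 of the pair in control and 97.7% ± 1.7 in caNIK (SD, n = 2).

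At the gate to the mitochondrion, a kinase and its target fell together. Pdk1, which inactivates pyruvate dehydrogenase, was at 166 and 157 CPM in control and 82.4 and 62.7 CPM in caNIK, 2.23-fold lower (log2 fold change -1.16 ± 0.18; edgeR adjusted p = 0.0061). Pdha1, the catalytic E1 alpha subunit that these kinases phosphorylate, was at 207 and 211 CPM in control and 117 and 129 CPM in caNIK, 1.71-fold lower (-0.77 ± 0.14; adjusted p = 0.011). Without control replicate 2, Pdha1 did not pass (-0.76; adjusted p = 0.051). Pdha1 is X-linked, and Xist, transcribed from the inactive X of female cells, was at 1971 and 903 CPM in control and 1190 and 1161 CPM in caNIK. The Y-linked gene Uty was at 5.34 and 17.7 CPM in control and 21.2 and 13.2 CPM in caNIK, so both genes had reads in every library. The other X-linked members, Pgk1, Pdk3 and Pfkfb1, did not pass, and the part of sex or of Xist in the Pdha1 difference was not tested.

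The other kinases did not pass. Pdk3 was at 66.0 and 64.3 CPM in control and 54.0 and 59.1 CPM in caNIK (-0.20 ± 0.15; adjusted p = 0.38). Pdk2 overlapped between groups, and Pdk4, a kinase raised by fasting and fatty acids, had 7 to 18 reads in each library, with a 95% interval of its log2 difference from -0.97 to 2.73. The summed kinase level per length was 51.8 ± 0.15 CPM per kb in control and 36.7 ± 0.99 in caNIK (SD, n = 2). The share of Pdk1 in that sum was 40.2% ± 1.5 in control and 25.4% ± 4.2 in caNIK, behind Pdk3 in both groups.

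**Figure D3:**
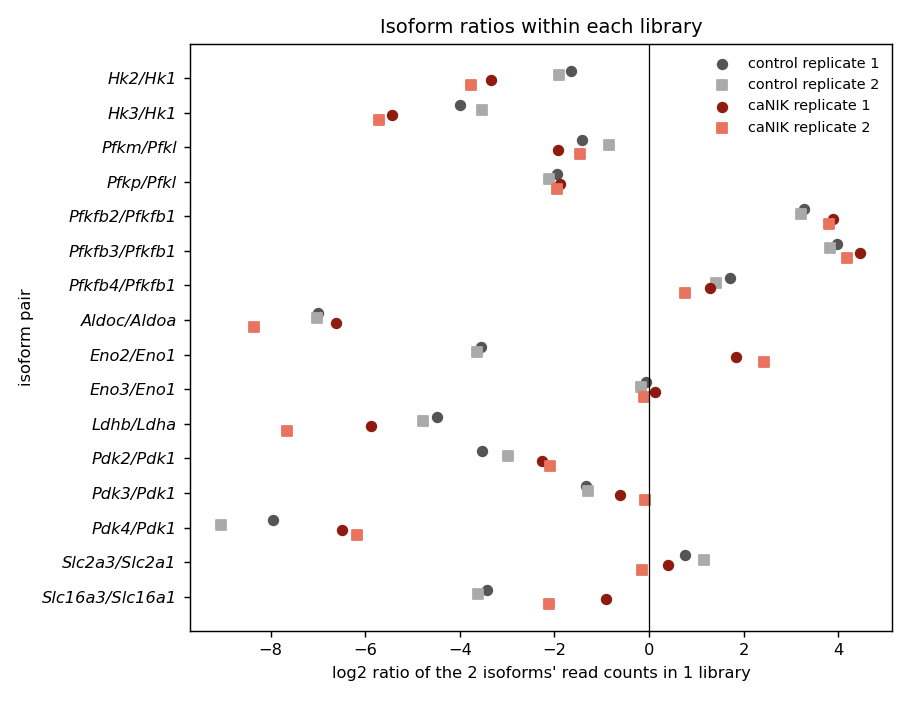
Log2 ratio of the read counts of 2 isoforms within each library (x axis) for 16 isoform pairs (y axis), with grey for control, red for caNIK, circles for replicate 1 and squares for replicate 2. The Eno2/Eno1 ratio of the caNIK libraries lies to the right of the control libraries by 5.72 on the log2 scale, and Hk2/Hk1, Hk3/Hk1 and Ldhb/Ldha lie to the left.

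Ratios within a library do not depend on how libraries are scaled. In all, 16 isoform pairs were compared, and pairs of a family share their reference isoform. With 2 libraries against 2, the exact two-sided permutation test cannot give a p under 0.333, and no pair could pass. The differences of the mean log2 ratio were -1.78 for Hk2/Hk1, -1.80 for Hk3/Hk1, -2.13 for Ldhb/Ldha, 0.96 for Pdk3/Pdk1 and 2.01 for Slc16a3/Slc16a1. The largest replicate SD among these was 1.3, in the caNIK libraries for Ldhb/Ldha.

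Hif1a itself was at 90.1 and 77.7 CPM in control and 131 and 106 CPM in caNIK. Both caNIK libraries were higher, but the gene did not pass (0.50 ± 0.18; edgeR adjusted p = 0.090). It passed without caNIK replicate 2 (0.63; adjusted p = 0.049) and not in DESeq2 (adjusted p = 0.069). HIF-1 alpha protein is set mainly by its degradation, which counts of transcripts do not measure.

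Among 17 tested partners and regulators of the factor, 2 rose and 1 fell (median log2 fold change -0.01). Their share past the threshold was 17.6%, against 22.0% of all tested genes. Arnt2, a partner subunit best known from neurons, had 4 and 5 control reads and 1486 and 778 caNIK reads, or 0.208 and 0.213 CPM against 79.8 and 37.5 CPM (8.08 ± 0.55; edgeR adjusted p = 0.00031). Cul2, the scaffold of the ligase that degrades HIF subunits, rose by 0.75 ± 0.20 (adjusted p = 0.039), a call lost without control replicate 1 (adjusted p = 0.15), control replicate 2 (0.052) or caNIK replicate 2 (0.47; adjusted p = 0.13). Egln3, an oxygen-sensing hydroxylase and itself a HIF target, was at 42.6 and 38.5 CPM in control and 14.1 and 6.65 CPM in caNIK (-1.97 ± 0.36; adjusted p = 0.011). The main partner gene Arnt, the hydroxylase gene Egln1 and Vhl did not pass.

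Of 26 tested HIF targets outside glycolysis, 6 rose and 4 fell (38.5%, against 22.0% of all tested genes), and their median was 0.03. This list also holds Pfkfb4, which is one of the 33 genes and did not pass. Bhlhe40, a transcriptional repressor also induced by many other signals, rose from 6.90 and 3.62 CPM to 180 and 158 CPM (5.01 ± 0.32; edgeR adjusted p = 0.00026). Ddit4, an inhibitor of mTORC1 signalling, rose by 2.05 ± 0.26 (adjusted p = 0.0027), and Rcor2, a corepressor, fell by 2.72 ± 0.31 on the log2 scale (adjusted p = 0.0019). The other calls were named after their values were seen. Bnip3l, a mitophagy receptor, rose by 1.16 ± 0.16 and Ndrg1, a stress-response gene, by 2.07 ± 0.32 on the log2 scale (adjusted p = 0.0040 and 0.0059). Adm, which encodes the peptide adrenomedullin, had 0 and 3 reads in control and 172 and 58 in caNIK. Cox4i2, a cytochrome oxidase subunit, had 79 and 65 reads in control and 5 and 1 in caNIK. Each of these passed in all 12 alternatives. Car12, a carbonic anhydrase, fell by 2.21 ± 0.47 and did not pass without caNIK replicate 2 (adjusted p = 0.054). Vegfa, the angiogenic factor, was at 29.9 and 34.3 CPM in control and 120 and 50.5 CPM in caNIK (adjusted p = 0.041). It did not pass in limma-voom (adjusted p = 0.061), with scaling by library totals (adjusted p = 0.061) or without caNIK replicate 1, where its log2 fold change was 0.66 (adjusted p = 0.062). Car9, a carbonic anhydrase often used as a hypoxia marker, fell by 1.30 ± 0.36 (adjusted p = 0.046), a call lost with scaling by library totals (adjusted p = 0.050), without control replicate 1 (0.17) and without caNIK replicate 2 (0.11).

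**Figure D4:**
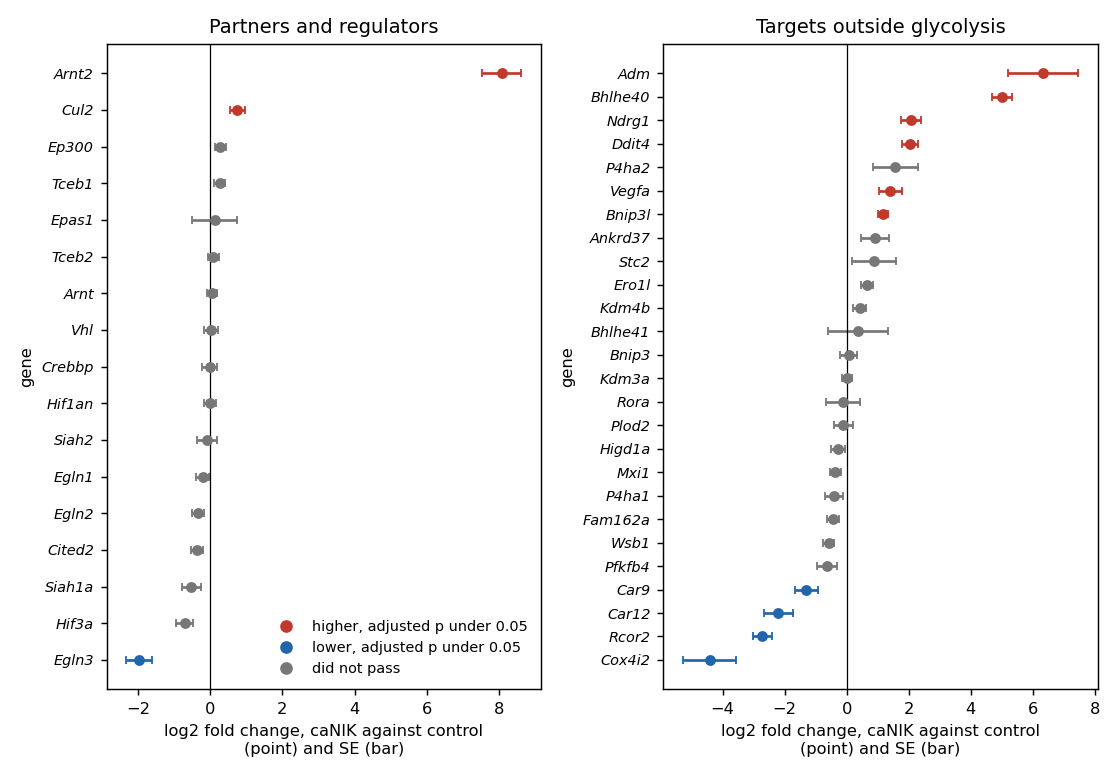
Log2 fold change, caNIK against control (x axes, points, with SE as bars; 2 libraries a group), of 17 partners and regulators of the hypoxia factor and of 26 of its targets listed as outside glycolysis (Pfkfb4 is also one of the 33 genes), with genes on the y axes. Red marks genes that rose and blue genes that fell; the targets spread to both sides of 0, with 6 red and 4 blue.

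Further glucose and lactate genes beyond the 33 also changed in both directions. Of 27 tested, 4 rose and 3 fell, with a median of -0.08. Their share past the threshold, 25.9%, was near the 22.0% of all tested genes. Slc2a6, a glucose transporter of intracellular membranes, rose from 1.40 and 1.79 CPM to 39.2 and 54.0 CPM (4.86 ± 0.30; edgeR adjusted p = 0.00022). Bpgm, the enzyme of red cells that makes 2,3-bisphosphoglycerate, rose from 26.9 and 25.4 CPM to 73.4 and 91.2 CPM (1.66 ± 0.18; adjusted p = 0.0015), as did 9 of the 15 erythroid markers. Emb, a chaperone of the lactate carriers, was at 279 and 258 CPM in control and 66.5 and 52.5 CPM in caNIK (-2.17 ± 0.18; adjusted p = 0.00058). The other lactate carrier chaperone, Bsg, did not pass (0.05 ± 0.19). The remaining calls, chosen here to complete the count, were the transporter genes Slc2a4 and Slc2a8, which rose, and Slc16a7 and Pgm1, which fell. Slc2a4 did not pass without caNIK replicate 2 (adjusted p = 0.066), and Pgm1 did not pass when any library was left out (adjusted p from 0.051 to 0.23) or with median-of-ratios scaling (0.051).

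Around pyruvate entry, 1 of 14 tested genes rose and 1 fell (14.3%, against 22.0% of all tested genes, median 0.05). Mpc2, a subunit of the mitochondrial pyruvate carrier, was at 33.8 and 27.5 CPM in control and 17.1 and 18.7 CPM in caNIK (edgeR adjusted p = 0.045). That call was lost whichever of the 4 libraries was left out (adjusted p from 0.064 to 0.27). The malic enzyme gene Me1 rose by 3.05 ± 0.74 (adjusted p = 0.029) and did not pass without caNIK replicate 1 (0.076) or replicate 2 (0.068). In the pentose phosphate pathway, which branches from glucose 6-phosphate to make NADPH and ribose, 0 of 12 rose in edgeR's test. At an unadjusted p under 0.05, and in DESeq2 and limma-voom, 0 rose as well. In edgeR's test 2 of the 12 fell (16.7%, against 22.0% of all tested genes, median -0.13). These were Prps2, which makes the activated ribose for nucleotides (-1.18 ± 0.17; adjusted p = 0.0042), and Pgls, of the oxidative arm (-0.74 ± 0.15; adjusted p = 0.014), which did not pass without control replicate 1 (0.066) or replicate 2 (0.050). Of 24 regulators of glucose metabolism, 0 rose and 2 fell in edgeR's test (8.33%, against 22.0% of all tested genes, median -0.02). At an unadjusted p under 0.05, 4 were higher, and DESeq2 and limma-voom each called 1 higher. Myc, a transcription factor that raises many glycolytic genes, fell from 282 and 312 CPM to 152 and 178 CPM (-0.85 ± 0.16; adjusted p = 0.011), and Ppp1r3b, a glycogen-targeting phosphatase subunit, fell by 1.77 ± 0.37 on the log2 scale.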

How the data were processed

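Per the file headers, each of the 4 deposited tables holds gene symbols and counts; the values are whole numbers with differing totals, so no normalization had been applied. FastQC, TopHat2 2.1.0, featureCounts 1.5.0, DESeq2 1.10.1 and the build mm9 are named in the submitters' processing notes without role or order. The sources used here do not state the annotation, the strand setting or the treatment of reads with several matches. Sample titles gave the groups and replicate numbers.

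The analysis used edgeR 4.0.16 in R 4.3.3. The filterByExpr rule kept 14191 genes, and TMM factors (trimmed mean of M values) scaled the libraries. One quasi-likelihood fit over all kept genes, with no term but group, gave a two-sided F test per gene, and p-values were Benjamini-Hochberg adjusted over all of them. SE were taken from the F statistic, and levels are mean ± SD over n = 2 libraries where a mean is given. Levels per kb used the union of annotated exons in GENCODE M21 (GRCm38), which is longer than the main transcript of some genes. The test was tried on simulated counts for caNIK against control (5 simulations, a median of 13923 genes tested). It recovered 5.97% of genes changed 1.5-fold, 33.1% of those changed 2-fold and 74.5% of those changed 4-fold. Over all genes tested there, most changes of 2-fold or less were therefore missed. The rate for the 33 members alone was not tested. Of these, Slc2a1, Ldha and Pdha1 passed with changes of 1.89-fold, 1.60-fold and 1.71-fold. The 95% intervals given above for Pfkl, Pgk1 and Tpi1, which did not pass, do not reach a 2-fold change in either direction. The 33 members and the other lists were chosen with earlier results of these data known. Named genes are every member and, from each other list, the 3 past the threshold with the smallest p. Alternatives were DESeq2 1.42.0, limma-voom (limma 3.58.1), other scalings and filters, the replicate number as a block, and each library left out in turn.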

Additional observations from a re-analysis of the deposited data

How the results depend on the processing

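Of the 8 genes past the threshold, Eno2, Slc16a3, Slc2a1, Hk2 and Pdk1 passed in all 12 alternatives with the same direction; Hk3 passed in 9, Ldha in 10 and Pdha1 in 11, and these lost the call only when a library was left out. Leaving out 1 library at a time gave 3 to 5 higher and 3 to 6 lower members, against 4 and 4. With every gene of at least 1 read in any library kept, 7 members were lower, with Ldhb, Pfkm and Slc16a1 added; the cause was not tested. Over all genes, other scalings moved the median log2 fold change by at most 0.067 in size.

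The replicate numbers come from the titles, and nothing says that equal numbers share an animal or a batch. Across 14191 genes, the difference of replicate 2 from replicate 1 correlated between groups at r = 0.255, a description over 2 pairs. With the replicate block, 7 members were higher (Aldoa, Hif1a and Pfkfb2 added) and 7 lower (Ldhb, Pfkm and Slc16a1 added), the lists of related genes had 27 lower genes against 17, and 1766 genes in all were lower against 1165. With 2 libraries a group, changes under 2-fold are near the limit of what could be called.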

Other observations

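Glycogen and gluconeogenesis genes, which store glucose or rebuild it, were changed in 5 of 14 tested, 1 higher and 4 lower. Their share was 35.7%, against 22.0% of all tested genes, and their median log2 fold change was -0.33. Pygl, the glycogen phosphorylase of liver and white cells, which releases glucose units from glycogen, rose from 63.1 and 66.6 CPM in control to 363 and 563 CPM in caNIK (2.84 ± 0.24 on the log2 scale; edgeR adjusted p = 0.00064). Pygm, the muscle phosphorylase, went the other way, from 13.7 and 10.3 CPM to 4.94 and 2.46 CPM (adjusted p = 0.036). Pck2, the mitochondrial enzyme that makes phosphoenolpyruvate, fell from 143 and 145 CPM to 54.9 and 55.9 CPM (-1.38 ± 0.14; adjusted p = 0.0013). Fbp1, which reverses the phosphofructokinase step, had 96 and 82 reads in control and 5 and 2 in caNIK (-4.51 ± 0.74; adjusted p = 0.0074). Pygm, named after its value was seen, did not pass without control replicate 1 (adjusted p = 0.075) or caNIK replicate 2 (0.078). The fourth lower gene, Gyg, which primes glycogen synthesis, gave -0.58 ± 0.15 (adjusted p = 0.038), a call lost whichever of the 4 libraries was left out (adjusted p from 0.053 to 0.20). In the serine and glycine branch, which leaves glycolysis at 3-phosphoglycerate, 9.09% of 11 tested genes passed, against 22.0% of all tested genes. In edgeR's test 1 of the 11 rose and 0 fell. That gene was Mthfd2, a mitochondrial folate enzyme, at 38.9 and 53.2 CPM in control and 69.8 and 99.8 CPM in caNIK (adjusted p = 0.041), a call lost without control replicate 1 or caNIK replicate 2 (adjusted p = 0.15 in both). At an unadjusted p under 0.05 in edgeR, 1 gene of the branch was lower, and DESeq2 and limma-voom each called 0 lower.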
